A study of Drosophila melanogaster with 2 samples.

Results

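The 216 peaks described here are the places inside introns, 501 to 2000 bp from the nearest annotated transcription start site, where GFP-tagged TFAM was recovered from fly chromatin (Drosophila melanogaster). They were chosen, with earlier results of these data known, by a rule of position applied to the peaks that passed the authors' reproducibility threshold. The summit had to lie inside an annotated gene, outside every annotated exon, and at that distance from the nearest start site of any gene. They made up 216 of the 1268 nuclear peaks of that list (17.0%, 95% Wilson interval 15.1 to 19.2) and of 1290 peaks in all, the other 22 being mitochondrial. Both samples were whole embryos of mixed sex, 0 to 16 h old, from 1 transgenic line that stably expresses TFAM with GFP at its C terminus. They form 1 group, biological replicates 3 and 4, and no control or untagged sample was analysed here. The precipitation used an anti-GFP antibody according to the descriptions, while the antibody field names TFAM. Whole embryos mix all tissues and stages of that span and a peak does not say in which cells it arose. Each peak carries a value that the authors' peak caller set against a control, here called its value. Read counts are not part of these lists, so library depth is unknown, and the intervals cover the counting of peaks only.

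TFAM belongs to the HMG-box proteins, which bind the minor groove of DNA and bend it sharply. It is known for coating and compacting mitochondrial DNA and, in mammals, for helping the mitochondrial RNA polymerase start transcription. Introns close to a start site, the first intron above all, are known to hold many of the enhancers and alternative promoters of fly genes. The members were compared with promoter peaks (summit within 500 bp of a start site). They were also compared with deep intronic peaks (in no exon, over 2000 bp from a start site). A further comparison was with 41063 windows, called tiles, that lie wholly in intronic sequence open to the same rule. Stretches too short for a whole window, such as short introns, are not among the tiles.

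Sequences around 5 of the 10 highest summits are given to show the features described further on, an A+T-rich centre and, in some, a short string near it. Each is 151 bp of the dm6 plus strand centred on the summit, read from the RefSeq genome, with every copy of CAGTG or its reverse complement CACTG in capitals. Lk6, NFAT and CG11050 hold the string within the window, while ush and Trl do not.
ush, chr2L:480984-481134: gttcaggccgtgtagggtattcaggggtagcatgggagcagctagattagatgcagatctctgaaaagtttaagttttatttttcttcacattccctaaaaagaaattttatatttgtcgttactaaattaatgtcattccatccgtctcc
CG11050, chr2L:6612641-6612791: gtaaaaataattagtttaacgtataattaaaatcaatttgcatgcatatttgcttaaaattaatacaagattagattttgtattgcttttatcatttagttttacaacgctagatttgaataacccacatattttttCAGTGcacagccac
Lk6, chr3R:11760956-11761106: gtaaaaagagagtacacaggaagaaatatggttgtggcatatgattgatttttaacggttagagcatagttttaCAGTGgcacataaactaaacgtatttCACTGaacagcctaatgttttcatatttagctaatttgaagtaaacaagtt
Trl, chr3L:14759442-14759592: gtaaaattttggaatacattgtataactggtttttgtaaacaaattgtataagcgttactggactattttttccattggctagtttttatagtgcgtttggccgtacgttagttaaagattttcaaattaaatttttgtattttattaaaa
NFAT, chrX:13640432-13640582: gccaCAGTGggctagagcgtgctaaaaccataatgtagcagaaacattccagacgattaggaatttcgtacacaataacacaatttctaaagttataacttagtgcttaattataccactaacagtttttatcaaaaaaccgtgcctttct
The Lk6 window holds 2 copies, 1 of them at the summit itself. The single copies of CG11050 and NFAT lie near opposite ends of their windows. The A+T content of the printed windows was 62.9% for ush, 74.8% for CG11050, 68.2% for Lk6, 74.2% for Trl and 64.2% for NFAT. These 5 are examples and do not stand for all of the highest members. Among those not printed, the A+T content within 100 bp was 48.8% for cno, 59.2% for CG9663, 60.2% for CG32772 and 68.7% for Hyls1/chif. The median of the tiles was 60.7%.

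The first question was how often peaks lie in this stretch of intron. The sequence open to the rule amounted to 11.4 Mb, which gives 18.9 members per Mb, against 34.0 promoter peaks per Mb, 5.99 deep intronic peaks per Mb and 9.47 per Mb over all nuclear sequence. Within introns the density fell with distance from the start site beyond its highest bin. It was 41.3 per Mb at 0 to 100 bp, 63.3 between 100 and 250 bp and 35.0 at 251 to 500 bp. Among the members it was 22.0 per Mb at 501 to 1000 bp (97 peaks), 18.3 between 1000 and 1500 bp (69 peaks) and 15.4 at 1501 to 2000 bp (50 peaks). It was 10.5 per Mb at 2001 to 3000 bp and 3.85 at 10001 to 20000 bp. The limits of 501 and 2000 bp thus fall on a gradual slope. The pooled list described below, which includes background regions, had this slope too. It held 135, 114 and 96.3 regions per Mb in the members' bins, in order of distance. The share kept in the thresholded list was 16.3, 16.0 and 16.0% there. The slope among the members is therefore not particular to thresholded peaks. Outside these bins the kept share differed, with 21.9% at 251 to 500 bp and 12.7% at 2001 to 3000 bp. The 27 intronic peaks at 401 to 500 bp had a median value of 120, and the 27 at 501 to 600 bp one of 144. At the far limit there were 11 peaks at 1901 to 2000 bp (median value 111) and 5 at 2001 to 2100 bp (median 115).

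**Figure D1:**
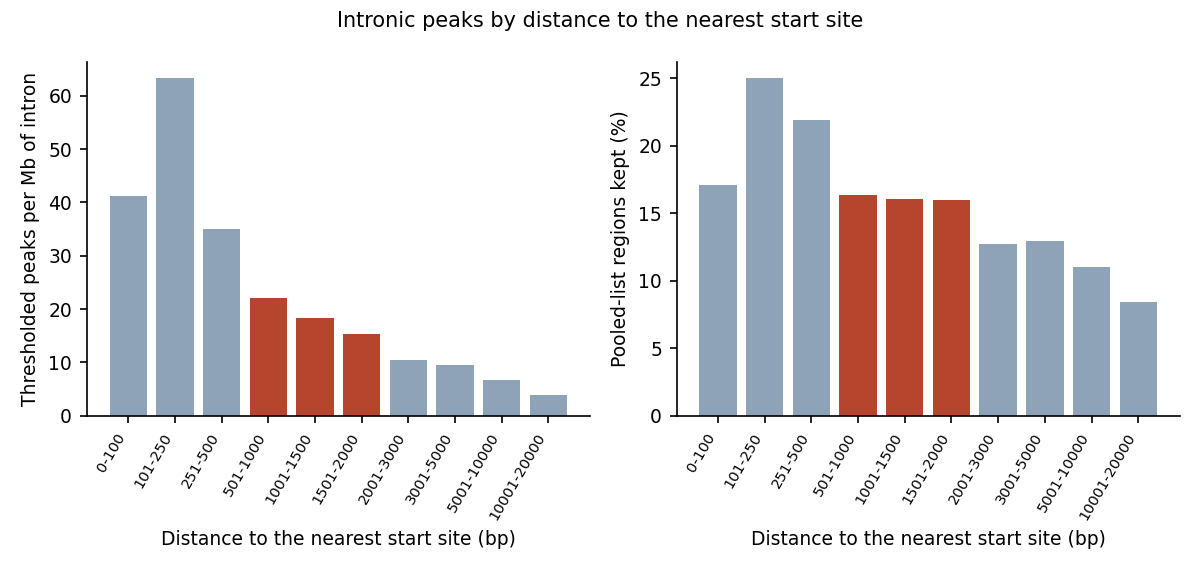
Intronic peaks by distance in bp to the nearest start site; the left panel gives thresholded peaks per Mb of intron and the right panel the percent of pooled-list regions that were kept in the thresholded list. Red bars are the members' range, 501 to 2000 bp; the density is 22.0, 18.3 and 15.4 per Mb in those bins, between 35.0 at 251 to 500 bp and 10.5 at 2001 to 3000 bp.

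The nearest peaks on either side of each limit ranged in value from 95.6 to 242. Just inside 501 bp were peaks in wde, a partner of a histone H3 lysine 9 methyltransferase (503 bp, value 163), and in CG14434 (503 bp, value 147). Just outside were peaks in MESR3 (491 bp, value 120) and CG31612 (489 bp, value 242). At the far limit the members were in hiw, a ubiquitin ligase of synapse growth (1993 bp, value 99.6), and msn, a Ste20-type kinase (1990 bp, value 103). The peaks beyond it were in lncRNA:CR44320 (2004 bp, value 108) and in pnt, an ETS transcription factor (2008 bp, value 95.6).

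The authors also called peaks, together with background regions, on both replicates pooled, and the thresholded list is a subset of that pooled list. Of the 1337 pooled regions that meet the same position rule, 216 were kept, which is 16.2% (95% Wilson interval 14.3 to 18.2), against 13.2% of all nuclear pooled regions. The share was 17.5% for promoter regions, 11.2% for deep intronic and 9.68% for intergenic ones. When only pooled regions at a q-value of at most 0.05 were counted, 216 of 388 were kept (55.7%, interval 50.7 to 60.5), against 51.7% of all such nuclear regions. That interval holds the overall share, so the excess over all regions was not clear once background regions were set aside.

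The members' values were close to those of other nuclear peaks. Their median was 131 (quartiles 105 and 172, range 92.5 to 693), against 135 for promoter peaks, 120 for deep intronic peaks, 132 for intergenic peaks and 130 for all nuclear peaks. In the list of replicate 3 alone the medians were 63.5 for the members, 71.0 for promoter peaks and 57.4 for deep intronic peaks. In that of replicate 4 they were 69.7, 69.0 and 65.3 in the same order. The members' median thus lay below that of promoter peaks in replicate 3 and above it in replicate 4, while it exceeded that of deep intronic peaks in both. A value of 200 or more was reached by 38 members (17.6%), close to the 18.5% of all nuclear peaks. The share was 22.7% for promoter peaks, 10.5% for deep intronic, 12.8% for intergenic and 31.25% for the 32 exonic peaks.

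**Figure D2:**
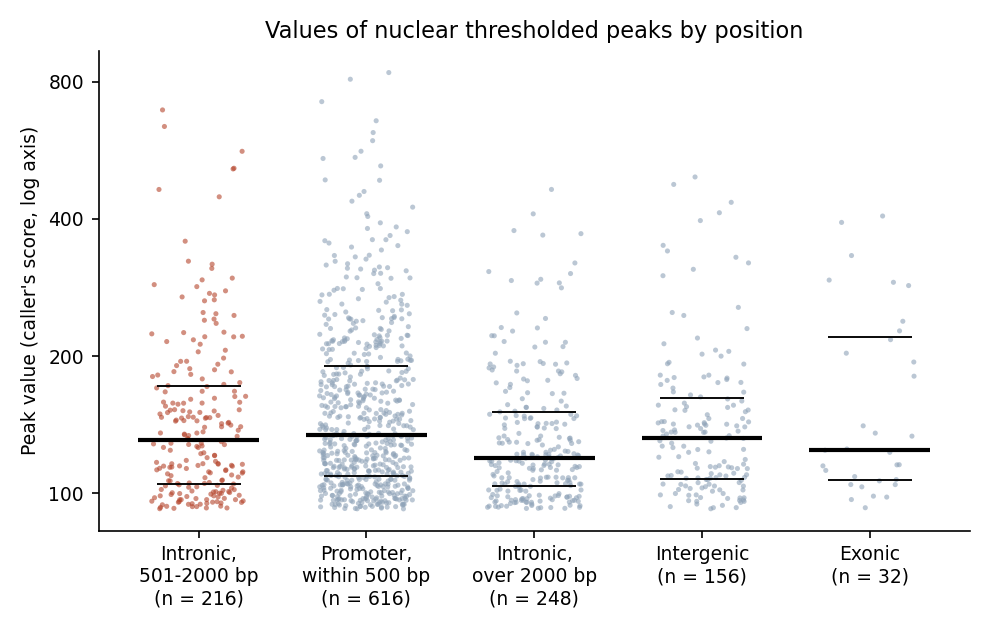
Value of every nuclear thresholded peak (log axis) by the position of its summit; thick lines are medians and thin lines quartiles, and points are spread sideways only for display. The members, in red at the left, have a median of 131 and a highest value of 693, against 135 and 837 for promoter peaks.

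The highest members stood in genes of several kinds, and most ranked high in both replicates. The highest of all lay in ush, whose product is a zinc-finger partner of GATA transcription factors, with a value of 693 (338 in replicate 3, 353 in replicate 4). Its nearest start site is not that of ush but of cbt, a zinc-finger transcription factor gene, 1371 bp away, and the cbt start carried a thresholded promoter peak of its own. Next came CG11050 with 638 (297 in replicate 3, 338 in replicate 4), in an intron of only 140 bp, the shortest that held a member. CG32772 followed with 563 (302 in replicate 3, 261 in replicate 4).

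The peak in cno, the afadin gene that ties adherens junctions to actin, had a value of 516 and was uneven, with 172 in replicate 3 and 343 in replicate 4. Lk6, a kinase of the translation initiation factor eIF4E, had 515 and was even, with 258 in replicate 3 and 257 in replicate 4. Trl, which encodes the GAGA factor, a chromatin-opening protein that binds GA repeats, had 464 (269 in replicate 3, 194 in replicate 4). CG9663 had 447 (204 in replicate 3, 243 in replicate 4) and a second member only 204 bp away with a value of 188. Rank 9 was the overlap of Hyls1, a centriole gene, and chif, a partner of the replication kinase Cdc7, with 323, and rank 10 was NFAT, a transcription factor, with 318.

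Ranks 11 to 20 ran from 311 to 266. They were CG9837 (311), the shared intron of HmgD and HmgZ (296), Reph (294), InR, the insulin receptor (287), for, a cGMP-dependent protein kinase (284), Adf1, a transcription factor (278), brat, a translational repressor (274), simj, a subunit of the NuRD complex (272), the overlap of CG1677, Dok and lncRNA:CR44357 (270), and mub, an RNA-binding protein (266). HmgD and HmgZ encode chromosomal HMG-box proteins, the same DNA-binding fold as TFAM. Their peak, 561 bp upstream of the nearest HmgZ start, had 191 in replicate 3 and 105 in replicate 4. At the other end, the lowest members were in Pen, an importin alpha (92.8), fwe (92.7) and CG5004 (92.5).

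The 20 highest members of replicate 3 and the 20 highest of replicate 4 shared 13. All 216 members overlapped a region in each replicate list, which the reproducibility threshold favours by its construction. The replicate region reached a q-value of at most 0.05 for 216 members in replicate 3 and for 193 in replicate 4 (89.4%). The replicate summits lay a median of 24 bp apart, and at most 287 bp. Across the 216 members the values of the replicates had a Spearman rho of 0.54, against 0.56 for 614 promoter peaks and 0.34 for 248 deep intronic peaks. These are descriptions over peaks of the same pair of libraries.

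The members that differed most between the replicates were not among the 20 highest. After each replicate was divided by its own median over the members, the ratio of replicate 3 to replicate 4 was 3.68 for kdn, the mitochondrial citrate synthase, 3.51 for Leash and 2.46 for Raf. The kdn peak had 96.6 in replicate 3 and 28.8 in replicate 4, where its q-value was 0.47. The Leash peak had 78.0 in replicate 3 and 24.4 in replicate 4 (q-value 0.73). At the other end the ratio was 0.42 for dpy, 0.43 for CG5953 and 0.46 for bun. The CG5953 peak, the highest in value of these 6 at 264, had 74.5 in replicate 3 and 189 in replicate 4.

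**Figure D3:**
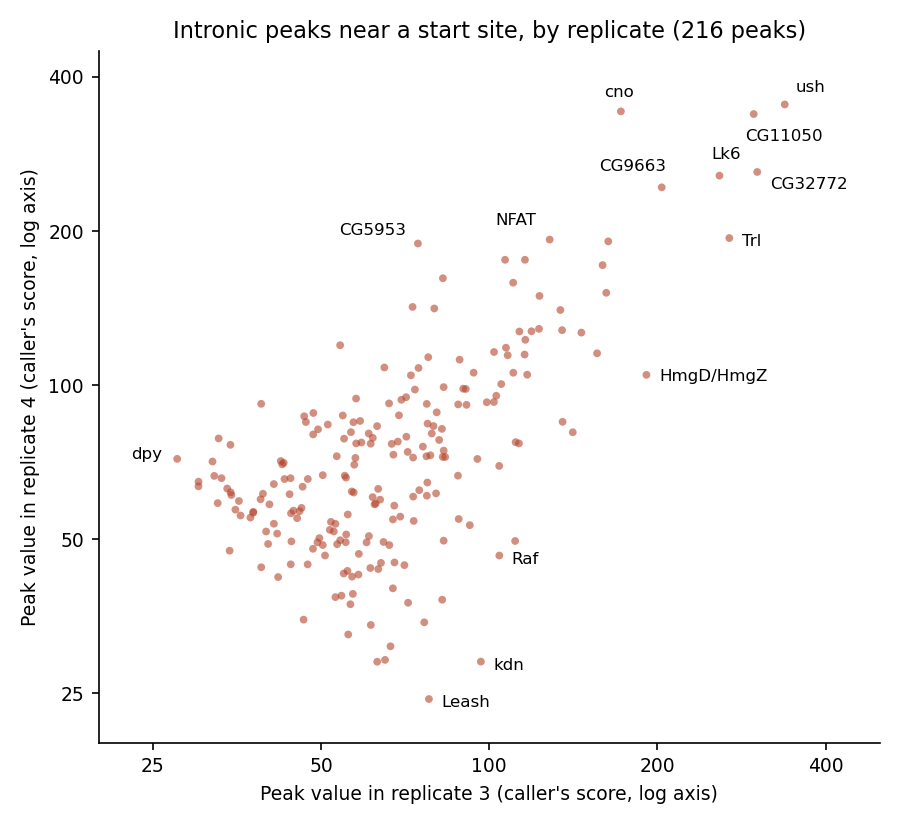
Value of each of the 216 members in replicate 3 (horizontal) and replicate 4 (vertical), both on log axes; each point is 1 peak, and the named points are high members or those with the most unequal values. The 7 highest members sit at the upper right with over 170 in both replicates, and kdn and Leash lie at the bottom with 28.8 and 24.4 in replicate 4.

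The peaks themselves had a nearly uniform width. It was 390 bp for 198 members, and the other 18 were narrower, 98 to 282 bp. The narrow ones had a median value of 321, against 126 for the others, and included all of the 10 highest and 16 of the 20 highest members. No source used here says how the caller set these widths. In 192 members (88.9%) the whole peak, not only the summit, lay outside every exon.

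Most members lay in first introns. A first intron of at least 1 transcript held 180 of 216 summits (83.3%, 95% Wilson interval 77.8 to 87.7), against 70.5% of the tiles. The share was 90.3% in the 72 members with the highest values, 87.5% in the 72 in the middle and 72.2% in the lowest 72. The median distance to the nearest start was 955, 1062 and 1182.5 bp in the same order. Of all members 44.9% lay at 501 to 1000 bp, against 33.9% of the tiles. The comparisons with tiles were not matched for this distance. The CG11050 and Trl peaks were the exceptions among the 20 highest, both in a second intron. The shortest intron around a summit had a median length of 4974 bp, against 6088 bp for the tiles.

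The nearest start site belonged to a gene that also covers the summit for 183 members (84.7%, interval 79.3 to 88.9), against 71.1% of the tiles. For the other 33, as for ush, it was the start of another gene, nested in the host or beside it. Downstream of the nearest start lay 143 members (66.2%, interval 59.7 to 72.2), a share whose interval includes the 62.2% of the tiles. The share downstream was 58.3% in the highest 72 by value, 65.3% in the 72 in the middle and 75% in the lowest 72. Of the members whose nearest start was their host's own, 97 of 183 were nearest to an internal start and not to the outermost one (53.0%), against 59.4% for the tiles.

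**Figure D4:**
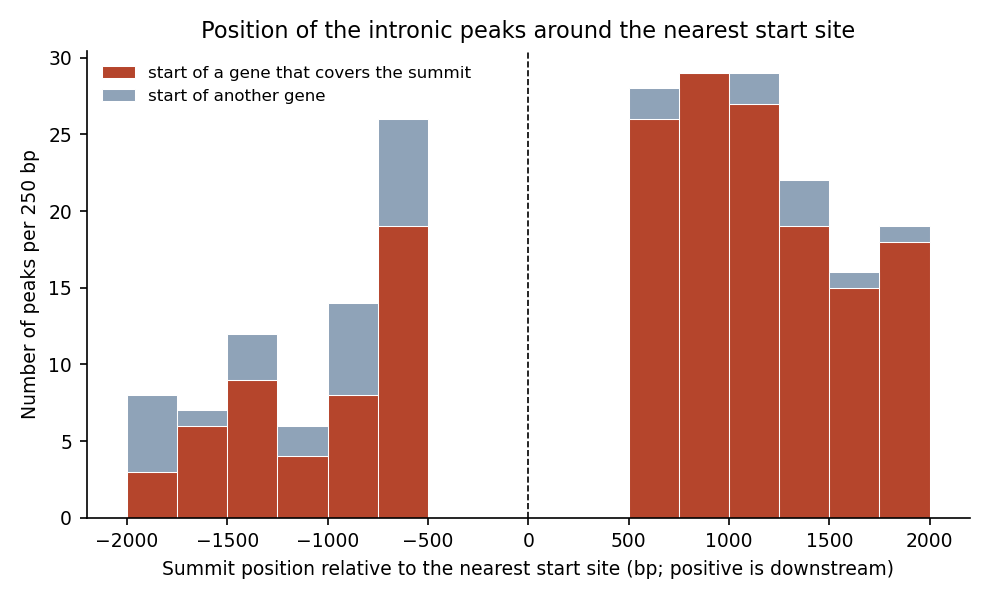
Number of members per 250 bp by signed distance from the nearest start site, positive downstream; red bars are starts of a gene that covers the summit and grey bars starts of another gene. Of the 216 members, 143 lie downstream and 73 upstream, and the 33 with another gene's start are found on both sides.

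Peaks at the start site itself accompanied a minority of members. A thresholded promoter peak lay within 500 bp of the nearest start for 25 members (11.6%, interval 7.96 to 16.5), against 4.04% of the tiles. A region of the longer pooled list lay there for 96 (44.4%), and a thresholded promoter peak lay at any start of the host for 47 (21.8%). No share of the tiles was computed for either of these counts, so neither can be read as an excess. Another thresholded summit lay within 2000 bp of 52 members (24.1%), against 13.6% of promoter peaks, 17.7% of deep intronic peaks, 24.4% of intergenic peaks and 25% of the 32 exonic peaks. That neighbour was a promoter peak for 28 of the 52, another member for 16 and a deep intronic peak for 6. The spacing to a start site fixed by the rule brings promoter peaks within this reach, so the share is not comparable in full between classes.

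Among the chromosome arms the density of members was highest on X. The X chromosome held 53, or 24.1 per Mb of sequence open to the rule, while 2L, 2R, 3L and 3R held 38 to 45 each, or 17.2 to 18.9 per Mb. Members made up 25% of the thresholded peaks on X and 14.7 to 16.7% on those arms. Of the pooled regions meeting the rule on X, 23.0% were kept (interval 18.1 to 28.9), against 13.5 to 17.8% on the arms. The highest of those, 17.8% on 2L, had an interval of 13.3 to 23.4, which holds the X share. The chromosomes were compared after seeing the data. For regions of all other classes the kept share was 13.7% on X and 12.2 to 13.0% on the arms, and the pooled list itself was not denser there, with 104 regions per Mb open to the rule on X and 106 to 131 on the arms. The median value of the members on X was 128, against 126 to 151 on the arms. Chromosome 4, with only 0.129 Mb open to the rule, held none.

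The 216 members lay in 209 genes, of which 191 held 1 member, 14 held 2 and 4 held 3. A member in overlapping genes counts for each of them. Of the 9005 protein-coding genes with any sequence open to the rule, 2.23% held a member (interval 1.95 to 2.56). Those with a member had a median of 3383 bp open to the rule, against 387 bp over all 9005, so genes with long introns near their starts had more room for a member. In 4 genes there were 3 members each, namely CG1677, lncRNA:CR44357 (both sharing the same 3), Dys, the dystrophin gene, and CHES-1-like, a forkhead transcription factor gene. The Dys members had values of 212, 121 and 101.5, and those of CHES-1-like 173, 140 and 113. Of the 3 in CG1677, 1 lay nearest to brk, the repressor of Dpp target genes (110), and 1 nearest to CBP (158).

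Gene lists drawn up for developmental and housekeeping functions, with earlier results of these data known, gave small counts. Among chromatin regulators 3 of 17 genes with open sequence held a member, against 2.23% of all protein-coding genes. They were Trl with 464 and a second member of 93.5, psq, which encodes another protein that binds GA repeats (115), and kis, a chromatin remodeller (96.8). In the insulin and TOR list 2 of 12 did, Lk6 (515) and InR (287). In the Dpp and BMP list 2 of 10 did, Mad, the signal-transducing SMAD (163), and shn, its zinc-finger partner (172). For the EGFR and Ras list it was 2 of 13, Raf (116) and drk, the Grb2 adaptor (161).

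Further lists had 1 or 2 genes each. ush, with 693 and a second member of 115, was the only one of 6 in the list of GATA factors and partners. The ecdysone list had EcR, the hormone receptor (150), and Hr4, a nuclear receptor (97.4), of 11. The axon guidance list had fra, the netrin receptor (152), and NetB, a netrin (105), of 13. The actin and adhesion list had cno (516) and crb, the apical polarity protein (115), of 27. The Notch list had neur, a ubiquitin ligase acting on Notch ligands (99.0), and neb (128), of 10, although neb is a kinesin gene and not a known Notch component. The circadian list had Pdp1, a clock transcription factor (94.3), of 8. The share of genes in a list does not allow for their length of open sequence. Per Mb of open sequence the chromatin list had 115 members, the insulin and TOR list 104 and the GATA list 79.7. The Notch list had 52.0, the Dpp and BMP list 48.0, the circadian list 39.9, the EGFR and Ras list 38.9 and the axon guidance list 36.3. The ecdysone list (24.6) and the actin and adhesion list (21.9) were closest to the 18.6 over all protein-coding genes. Each list is short, so these figures rest on 1 to 4 members. Because the lists were chosen with earlier results of these data known, the figures are a description and no independent support.

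Some lists held no member. This was the case for 8 Hox genes (32.3 kb open to the rule), 13 genes of Wnt and Hedgehog signalling (48.6 kb), 13 early patterning genes (21.7 kb) and 9 neural fate genes (27.3 kb). It was also the case for 26 ribosomal protein genes and 11 nuclear genes for the upkeep and expression of mitochondrial DNA, whose open sequence came to only 5.33 and 1.79 kb in total. At 18.6 members per Mb over all protein-coding genes, the open sequence of each of these lists corresponds to less than 1 member, so a count of 0 does not set them apart. TFAM itself (3R 20575245 to 20577010, dm6) has 524 bp open to the rule and held no member. Within 500 bp of the gene there were 2 regions of the pooled list and 0 thresholded peaks.

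The summits were A+T-rich. Within 100 bp of the summit the median A+T content was 64.7% (quartiles 60.6 and 68.3), against 65.2% at promoter peaks, 64.2% at deep intronic peaks, 61.2% at pooled regions of the same position that were not kept, and 60.7% in the tiles. The rise was local. In windows of 25 bp the mean was 68.1% at the members' summits and 57.7% at 300 bp or more from them. The same profile was seen at promoter peaks (66.4% at the summit and 55.7% far from it) and at deep intronic peaks (68.8% and 57.6%). Among the highest members, Trl had 75.1% within 100 bp and cno only 48.8%.

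Of 12 motifs searched on both strands within 100 bp of the summit, TGTTTAC, a forkhead site, had the highest ratio of the members' share to that of the tiles, 1.73 (2.0 within 50 bp of the summit). GAGAG, the core of GAGA factor sites, was held by 55 members (25.5%, interval 20.1 to 31.7), against 21.0% of the tiles. GATAAG, bound by GATA factors, was held by 14.4% (interval 10.3 to 19.7) against 10.5%, and TGTTTAC by 9.26% (interval 6.07 to 13.9) against 5.36%. Of deep intronic peaks, 28.2% held GAGAG, 11.3% GATAAG and 12.5% TGTTTAC. Of pooled regions of this position that were not kept, 24.4%, 12.6% and 7.31% did, in the same order. All of these lie inside the members' intervals, so the 3 motifs do not set the members apart from these classes. A run of 8 A (AAAAAAAA) was held by 16.2% of members against 14.1% of the tiles, and CACACACA by 3.70% against 5.40%. The CACACACA ratio of 0.69 was 1.06 around the replicate 4 summits of the 193 members with a q-value of at most 0.05 there. The promoter motifs were rare here. TATCGATA, the core of the DNA replication-related element, was in 1 member (0.46%), against 5.19% of promoter peaks and 0.45% of the tiles. GGTCACACT, core promoter motif 1, was in 0 members (Wilson upper limit 1.75%), against 2.11% of promoter peaks and 0.10% of the tiles. CACGTG, an E-box, was in 2 members (0.93%), against 3.90% of promoter peaks and 2.36% of the tiles. Its ratio to the tiles was 0.39, and 1.10 around the replicate 4 summits of those 193 members, so the low share does not hold there. GAGAGAGA, which contains GAGAG, was in 4 members (1.85%, tiles 1.58%), a ratio of 1.18 that was 2.06 around the members' replicate 3 summits. TATATATA was in 5 (2.31%, tiles 3.36%), TGACTCA, an AP-1 site, in 5 (2.31%, tiles 2.38%) and CAGGTAG, bound by the early activator Zelda, in 3 (1.39%, tiles 0.92%).

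A ranking of all 8192 strings of 7 bases, with their reverse complements, was then made by how much more often members held them than tiles did. It was limited to the 866 strings in at least 5% of members, and its leaders were picked from these same data, so their excess is a description. The first was ACAGTGG, in 35 members (16.2%), against 2.72% of the tiles, a ratio of 5.96. It was in 9.09% of promoter peaks, 14.1% of deep intronic peaks and 8.33% of intergenic peaks. Of the 10 leading strings, 7 contained CAGTG or its reverse complement. That 5-base string was in 126 members (58.3%), 45.5% of promoter peaks, 55.2% of deep intronic peaks, 40.7% of the pooled regions of the same position that were not kept, and 27.8% of the tiles.

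The string was denser beside the summits than on them. Members had 2.36 copies per kb within 25 bp of the summit, 4.07 at 26 to 50 bp, 4.72 at 51 to 75 bp and 5.37 at 76 to 100 bp. Farther out the density was 2.92 between 100 and 150 bp and 1.75 at 301 to 500 bp, against 1.70 per kb in the tiles. Deep intronic peaks had the same course, with 2.29 copies per kb within 25 bp, 5 at 76 to 100 bp and 1.72 at 301 to 500 bp. Promoter peaks had 2.01, 4.81 and 2.16 over the same distances. Pooled regions of the same position that were not kept had a smaller rise, with 2.24 copies per kb within 25 bp, 2.64 at 26 to 50 bp, 2.98 at 51 to 75 bp and 2.52 at 76 to 100 bp. The centre is where the A+T content is highest, and the part of base composition in the dip there was not tested. Within 50 bp of the summit the share of members with CAGTG was 1.54 times that of the tiles, against 2.10 times within 100 bp.

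Between 26 and 100 bp from the summit, 110 members (50.9%) held the string on at least 1 side and 24 (11.1%) on both, against 50% and 8.87% of deep intronic peaks and 40.7% and 6.98% of promoter peaks. It had no set direction, reading away from the summit in 75 copies and toward it in 78. At deep intronic peaks 99 copies read away and 63 toward. Of the pooled regions of this position with ACAGTGG, 35 of 108 were kept (32.4%, interval 24.3 to 41.7), against 14.7% of those without it. Since ACAGTGG was picked on the kept regions, that contrast is a description only. The median value of members, all of which had passed the threshold, was 132 with ACAGTGG and 130 without it. Over all pooled regions of this position it was 67.8 with the string and 47.9 without it. Those include the kept regions on which the string was picked.

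**Figure D5:**
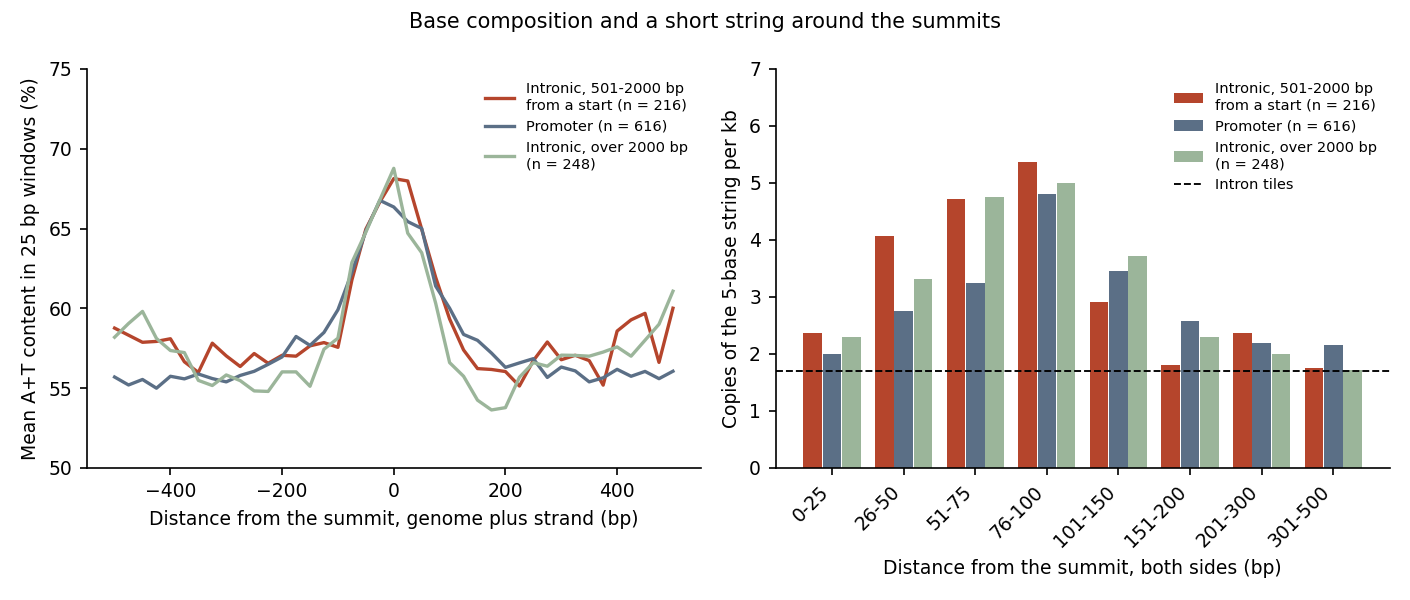
Left, mean A+T content in windows of 25 bp by distance from the summit on the genome plus strand; right, copies per kb of the 5-base string CAGTG, either strand, by distance on both sides, with the level in the tiles as a dashed line. For the members, in red, A+T content is 68.1% at the summit and the string is densest at 76 to 100 bp, with 5.37 copies per kb, against 1.70 in the tiles.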

How the data were processed

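Chromatin immunoprecipitation and sequencing was done on sonicated fragments of 200 to 800 bp, per the labels. Per the deposited descriptions of the files, the authors called peaks together with background for each replicate and for both replicates pooled, with a control alignment, and derived the thresholded list by the irreproducible discovery rate. No source used here names the aligner, the caller or their settings. Every deposited region comes with a score (its value) and the −log10 of a q-value, both the authors'. The score ranks peaks within a list and its scale differs between lists. Peaks were said to overlap when they shared at least 1 bp.

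Genes came from Ensembl 115 (BDGP6.54) without transposable elements, and sequence from the RefSeq genome of the same build (dm6), on 2L, 2R, 3L, 3R, 4 and X. Positions count from 1. Tiles are windows of the same width as those around summits (100 bp on each side), laid end to end along each chromosome. Only those lying wholly in intronic sequence open to the rule were kept, so none was in an intron shorter than 203 bp. The classification was checked on constructed genes and peaks with known answers. Python 3.11.15, pandas 2.3.3, NumPy 2.4.6, SciPy 1.17.1 and matplotlib 3.10.9 were used.

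With 1 group there was no contrast, so no test was run; shares have 95% Wilson intervals, and peaks are not independent replicates. The members and lists were chosen with earlier results of these data known. The genes named are those of the 20 highest and 3 lowest members, those with 3 members, the 2 peaks nearest each distance limit on each side, the 3 largest and 3 smallest ratios between replicates, members in the lists, and TFAM. Rank 8 is not reported here by name or sequence, but is included in every count and median. Listed symbols that the annotation did not hold were left out. The strings of 7 bases, the positions of CAGTG and the comparison of chromosomes were chosen after seeing the data.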

Additional observations from a re-analysis of the deposited data

How the results depend on the processing

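No paired analysis was possible because both samples belong to 1 group. Of 104 alternative values of the main results, 78 stayed within 1.5 times the count, inside the interval, or within the spread between replicates, and 26 moved. Many alternatives are subsets of the members, and the spread comes from the same 2 replicates that it judges. The count of 78 is thus not a measure of robustness. The RefSeq annotation gave the same 216 members and protein-coding starts alone gave 205, of which 202 were members. Keeping values at or above the nuclear median left 109 members, 9.54 per Mb, 59.6% of them downstream and 89.9% in a first intron. Narrower distance limits gave 97 members at 501 to 1000 bp (22.0 per Mb) and 119 beyond 1000 bp, and 501 to 3000 bp gave 16.2 per Mb. With pooled regions limited to a q-value of 0.05 or less, the kept share was 55.7%, which is 1.08 times that of all such regions, against 1.22 times without the limit. Agreement with both replicates was 92.6% by reciprocal overlap of 50%, 95.8% by summits within 100 bp and 89.4% by q-value. No member list was rebuilt from 1 replicate. Of the 216 members, 193 reached a q-value of 0.05 or less in replicate 4 and 216 in replicate 3, counts that cannot exceed 216. The A+T median was 63.7% around the replicate 4 summits of the 193 and 65.2% around the replicate 3 summits of the 216. With the values of 1 replicate, the members' median was 0.98 (replicate 3) and 1.03 (replicate 4) times that of all nuclear peaks. Within 50 bp of the summit the A+T median was 67.3%. The ratio to the tiles there was 0 for GAGAGAGA, TATCGATA, CACGTG and CAGGTAG, 0.34 for CACACACA, 1.54 for CAGTG, 4.12 for ACAGTGG and 1.55 for CAGTGTA, and above the nuclear median it was 0 for TATCGATA, CACGTG and CAGGTAG. The cause of these shifts was not tested. Assigning peaks to the gene of the nearest start gave 14 listed genes in place of 19. The thresholded list on dm3 held 1801 peaks, and no member was looked up there. Unknown depth and the absence of an untagged sample limit all values.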
